A study of Mus musculus with 6 samples.

Results

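Cd55 is 1 of 498 endogenous mouse genes measured in 6 libraries of expanded natural killer (NK) cells with NanoString nCounter probes, which tag transcripts with colour-coded barcodes that are counted one by one, with no PCR step. The gene was taken up because of its levels in these same libraries, so its values are given here as a description, with no test. It was read as the row of that name, by group, with its rank in each library and its distance from the negative controls. Its counts were high in all 4 libraries without the antibody, between 1475 and 5416, and low in both anti-TIM-3 libraries, at 116 and 35.

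All libraries came from NK cells of female C57BL/6 mice expanded for 12 days in 10 ng/mL of a conjugate of IL-15 with its receptor alpha chain, and all cells were purified again on magnetic columns before RNA was taken. The groups had 2 libraries each. The IL-15 group had the conjugate alone. The untreated feeder group also had AgN2a-4P cells, a mouse neuroblastoma line made to carry costimulatory ligands, irradiated at 100 Gy. The anti-TIM-3 group had the conjugate and feeder cells and then an antibody against TIM-3 for 4 h. The labels give the first 2 groups no treatment, while an isotype antibody appears as the control in the description of the design. Whether the controls went through the same incubation is therefore not settled. If they did not, the antibody and the 4 h step cannot be told apart.

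CD55, or decay-accelerating factor, is a membrane protein that protects a cell from complement on its own surface. Complement is a cascade of serum proteins in which C3 convertase enzymes deposit C3 fragments on a surface and lead to a pore in the membrane, and CD55 makes these convertases fall apart. It is held in the membrane by a glycosylphosphatidylinositol (GPI) anchor, and it is also the ligand of CD97, an adhesion receptor of leukocytes.

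The mouse has a second decay-accelerating factor gene, Cd55b, which encodes a form with a transmembrane segment. In the RefSeq annotation (GRCm38.p6) both genes lie on chromosome 1, on the same strand, with the long non-coding RNA gene Cd55os listed between them. The panel's list of probe accessions held 1 accession of Cd55 and 0 of Cd55b. The probe's own bases were not among the sources used here, so any share of Cd55b transcripts in the Cd55 count was not tested. The upstream sequences of both genes are shown because they let a reader see how far the 2 copies resemble each other. Each is the 250 bases before the RefSeq start, on the minus strand, at chr1:130462745-130462994 for Cd55 and chr1:130423044-130423293 for Cd55b. Capitals mark the longest run that both share, 24 bases.
Cd55: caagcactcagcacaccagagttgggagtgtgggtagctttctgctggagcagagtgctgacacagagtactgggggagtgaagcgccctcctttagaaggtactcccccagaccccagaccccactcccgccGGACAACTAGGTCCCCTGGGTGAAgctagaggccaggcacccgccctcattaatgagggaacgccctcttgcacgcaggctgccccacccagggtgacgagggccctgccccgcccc
Cd55b: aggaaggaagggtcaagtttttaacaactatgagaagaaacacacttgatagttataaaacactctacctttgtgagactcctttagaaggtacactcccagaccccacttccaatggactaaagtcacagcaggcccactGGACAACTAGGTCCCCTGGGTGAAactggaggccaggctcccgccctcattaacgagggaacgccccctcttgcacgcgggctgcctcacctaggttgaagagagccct
In a global alignment the stretches were identical at 179 of 281 columns (63.7%), with 62 columns holding a gap. The shared run ended 94 bases before the start of Cd55 and 86 bases before that of Cd55b. On both strands, the GC box GGGCGG occurred 2 times upstream of Cd55 and 1 time upstream of Cd55b, and 32.7% of all 32851 RefSeq windows of this length held it. The motif TGACG, a part of the cyclic AMP response element, occurred 1 time upstream of Cd55 and 0 times upstream of Cd55b (17.8% of windows), and the hypoxia response core ACGTG in neither (16.6% of windows). These matches describe letters in a window and say nothing of binding.

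Levels are given in 2 forms. Recovered counts are the whole barcode counts read back from the deposited log2 values, and normalised counts are those counts on the authors' scale, which sets the mean log2 value of 20 housekeeping probes equal in all libraries. Recovered totals over genes ran from 299485 to 441185 counts per library. The defining NK cell genes measured here were far above the negative controls in every library: the natural cytotoxicity receptor gene Ncr1 had 2447 to 7742 counts and the granzyme gene Gzmb 8436 to 20137.

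The normalised count of Cd55 was 4520 and 1079 in IL-15 replicates 1 and 3. It was 1974 and 4391 in untreated feeder replicates 2 and 3. In anti-TIM-3 replicates 1 and 2 it was 131 and 60.8. Both anti-TIM-3 libraries thus lay below all 4 others, and the highest of them was 8.26-fold below the lowest of the rest, IL-15 replicate 3. Of 430 tested probes, 12.6% had both anti-TIM-3 libraries below all 4 others, and 1 of these, the serine protease gene Ctsg, had a wider gap than Cd55. In bulk RNA such as this, fewer cells that express a gene and less RNA per cell cannot be told apart.

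**Figure D1:**
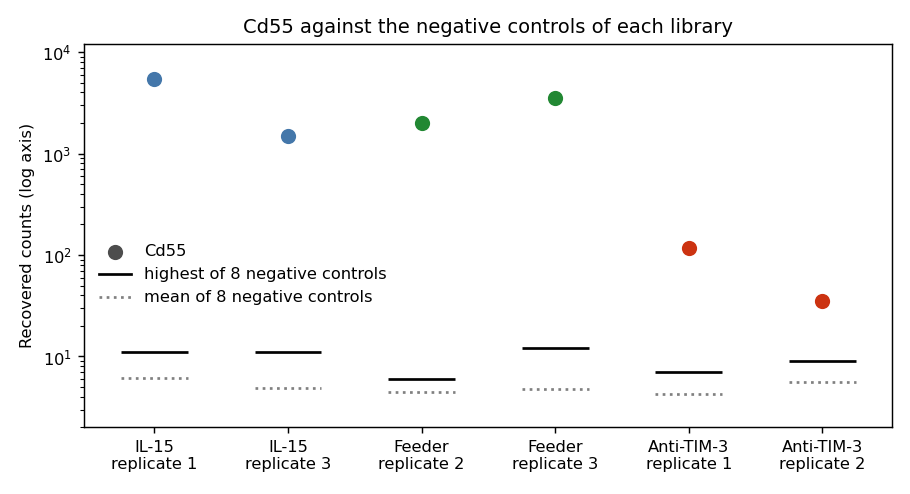
Recovered counts of Cd55 (points, log axis) in the 6 libraries, with the highest (solid line) and the mean (dotted line) of 8 negative controls in the same library. The 4 libraries without antibody lie between 1475 and 5416 counts, and the anti-TIM-3 libraries at 116 and 35, above the highest negative control of 7 and 9.

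On the log2 scale the group means were 11.52 ± 0.82 (SD, n = 2) in untreated feeder libraries, 11.11 ± 1.46 in IL-15 libraries and 6.48 ± 0.78 in anti-TIM-3 libraries. The untreated feeder and IL-15 means, neighbours in this order, were 0.41 apart, which is less than the SD within either group. The feeder mean was above the IL-15 mean by 1.33-fold, but single pairs of libraries went both ways, from 2.29-fold lower to 4.07-fold higher with feeder cells. The anti-TIM-3 mean was 33.0-fold below the feeder mean (log2 difference -5.05) and 24.8-fold below the IL-15 mean (log2 difference -4.63). Over the 4 pairs of 1 library from each group, Cd55 was 15.1-fold to 72.3-fold lower under anti-TIM-3 than with feeder cells, and 8.26-fold to 74.4-fold lower than with IL-15. Both differences share the anti-TIM-3 libraries.

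Only 3 tested probes lay lower than Cd55 in the anti-TIM-3 minus feeder difference, namely Ifitm1, Ctsg and Cma1, while the median of all 430 was 0.47. The same 3 genes lay lower in the anti-TIM-3 minus IL-15 difference, where the median was 0.70. Cma1, with 6 and 1 counts in anti-TIM-3 replicates 1 and 2, did not exceed the highest negative control there. Nor did Ctsg in replicate 2, with 4 counts, so the sizes of their differences are loosely determined. In the feeder minus IL-15 difference 307 probes lay lower than Cd55 and 122 higher. The authors' deposited table of 1 comparison, between groups it names only by number, lists Cd55 at a log2 fold change of -5.0, with 2 of 498 genes lower.

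The difference was somewhat larger on other scales. With total count, positive controls, the median of ratios or the trimmed mean of M values, the anti-TIM-3 minus feeder difference of Cd55 was between -5.62 and -5.35. Leaving out 1 library moved it between -5.62 and -4.47. By contrast, the feeder minus IL-15 difference changed sign without IL-15 replicate 3 (-0.62) and without untreated feeder replicate 3 (-0.16).

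**Figure D2:**
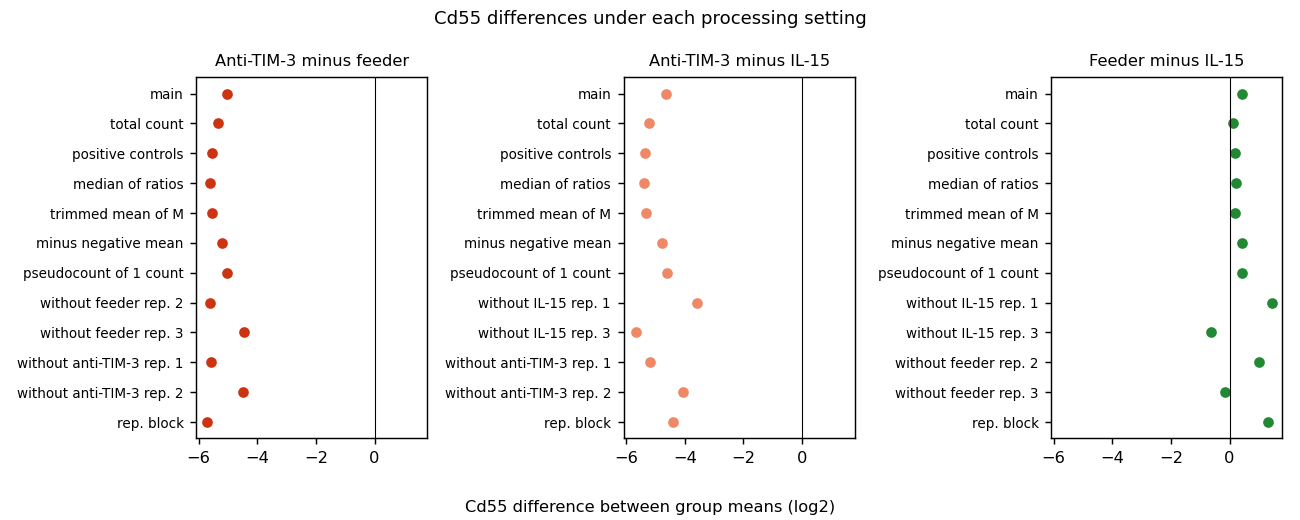
Difference of Cd55 between group means on the log2 scale (x axis) under each processing setting (y axis), 1 panel per pair of groups. All points of the anti-TIM-3 minus feeder panel lie between -5.73 and -4.47, whereas the feeder minus IL-15 points lie on both sides of 0.

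The rank of Cd55 within a library does not depend on the scale. Among 498 endogenous genes it ranked 11 and 54 in IL-15 replicates 1 and 3, and 32 and 16 in untreated feeder replicates 2 and 3. It ranked 278 and 340 in anti-TIM-3 replicates 1 and 2. Cd55 thus belonged to the most counted transcripts of the panel in all 4 libraries without antibody and to the lower part of the panel in both with it. Probes differ in how well they capture their transcript, so a rank compares the libraries for 1 probe and not the genes with each other.

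As a share of endogenous counts, Cd55 made up 1.48% in IL-15 replicate 1 (95% exact binomial interval 1.44% to 1.52%) and 0.388% in IL-15 replicate 3 (0.369% to 0.409%). The share was 0.605% (0.579% to 0.632%) and 1.13% (1.10% to 1.17%) in untreated feeder replicates 2 and 3. It was 0.0317% (0.0262% to 0.0380%) and 0.0130% (0.00905% to 0.0181%) in anti-TIM-3 replicates 1 and 2. No 2 of these intervals overlapped, and they cover counting error only.

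**Figure D3:**
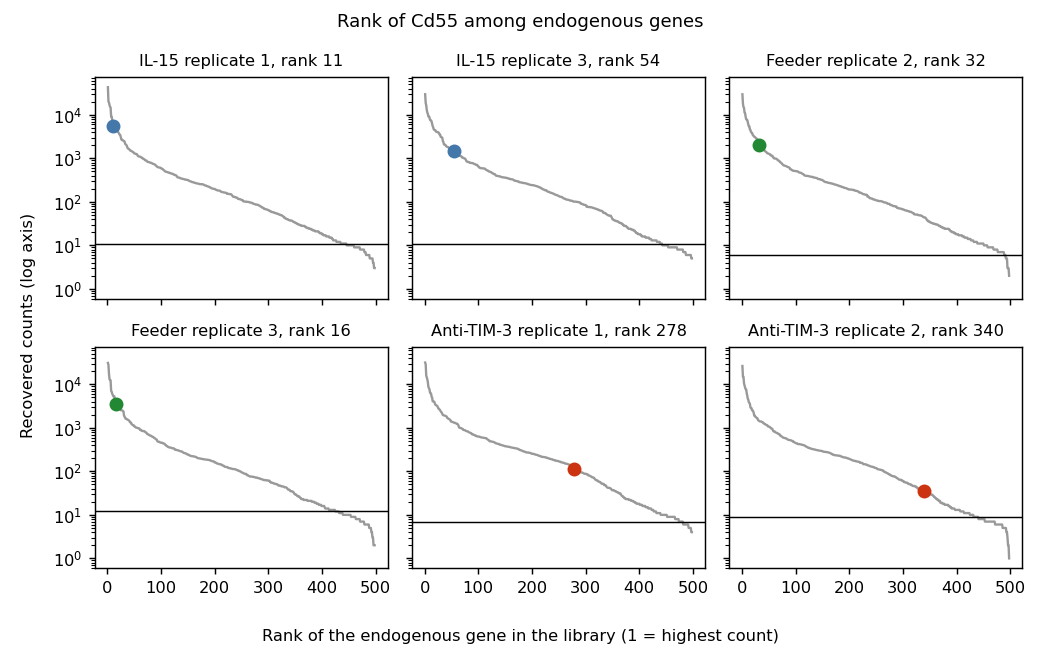
Recovered counts (y axis, log) of the 498 endogenous genes of each library in order of rank (x axis), with Cd55 as a coloured point and the highest negative control as a line. Cd55 sits at ranks 11 to 54 in the 4 libraries without antibody and at 278 and 340 in the anti-TIM-3 libraries.

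Cd55 was still above the negative controls where it was lowest. In anti-TIM-3 replicate 1 its count was 27.3-fold above the mean of the 8 negative controls and 16.6-fold above the highest of them. In anti-TIM-3 replicate 2 it was 6.22-fold above the mean and 3.89-fold above the highest. In the other libraries it stood 303-fold to 884-fold above the mean. The deposited log2 values put the spike-in controls on another scale than the genes: 1 count was worth 1.74 units for genes and 1.04 for controls in anti-TIM-3 replicate 2. Distances were therefore taken on recovered counts. After the mean negative count was subtracted, the anti-TIM-3 minus feeder difference was -5.20.

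Replicates of a group differed widely in Cd55. IL-15 replicate 1 was 4.19-fold above replicate 3, or 2.07 on the log2 scale, against a median absolute difference of 0.32 over all 430 tested probes. A larger difference between these libraries was found for 1 probe, that of the Ly49 receptor gene Klra4, which differed the other way, at 99 counts in replicate 1 and 662 in replicate 3. Untreated feeder replicate 3 was 2.22-fold above replicate 2, with 20 probes differing more, and anti-TIM-3 replicate 1 was 2.15-fold above replicate 2, with 29 differing more. The counting intervals above are much narrower than these differences.

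The genes whose log2 values over the 6 libraries were nearest to those of Cd55 were, in order, Ctsg, Havcr2, Vegfa, Klrg1, Ifitm2, Spp1, Ifitm1, Cma1, Klra2 and Ctla4. Each gene was centred on its own mean, and the measure of likeness was the root mean square distance on the log2 scale, among 410 tested endogenous genes. The distance was 0.30 for Ctsg, 0.67 for Havcr2 and up to 1.17 for Ctla4, against a median of 2.71. These genes were picked by their likeness to Cd55, so their own differences carry no test here. Cma1 and Klra2 in both anti-TIM-3 libraries, and Ctsg and Ctla4 in replicate 2 of them, did not exceed the highest negative control. The genes picked code for proteins of various kinds. Ctsg and Cma1 encode serine proteases, Havcr2 TIM-3 itself, Vegfa an angiogenic factor and Spp1 osteopontin. Klrg1 and Ctla4 encode receptors of lymphocytes, Klra2 a receptor of the Ly49 family, and Ifitm1 and Ifitm2 interferon-induced membrane proteins.

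**Figure D4:**
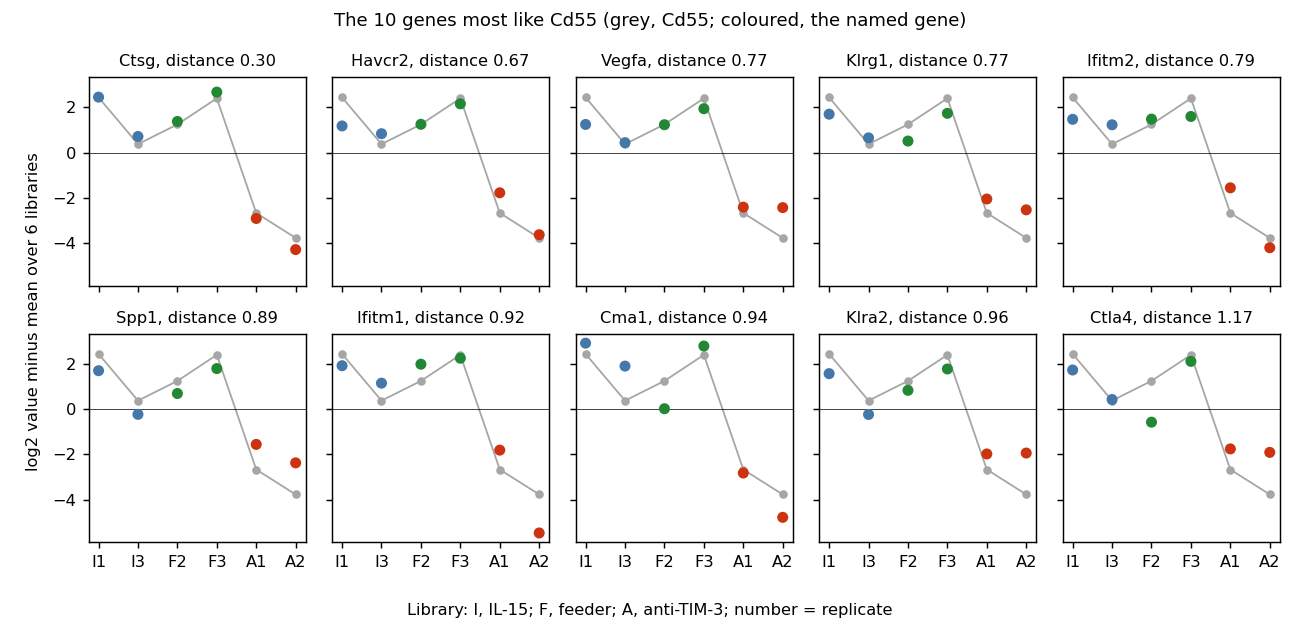
Log2 value of each of the 10 genes minus its mean over 6 libraries (y axis), by library (x axis; coloured points), with the profile of Cd55 in grey in each panel. Ctsg follows Cd55 in all 6 libraries at a distance of 0.30, while Spp1 has similar steps within groups and a smaller difference in the anti-TIM-3 libraries.

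Ctsg was the nearest. Its normalised count was 744 and 222 in IL-15 replicates 1 and 3, 352 and 868 in untreated feeder replicates 2 and 3, and 18.0 and 6.95 in anti-TIM-3 replicates 1 and 2. It was thus high and low in the same libraries as Cd55, and the anti-TIM-3 libraries did not overlap the others. Between the libraries the count of Cd55 ranged 155-fold, whereas the ratio of Cd55 to Ctsg counts within a library ranged 1.80-fold, from 4.85 to 8.75. In anti-TIM-3 replicate 2 Ctsg had 4 counts, within the range of the negative controls, and the ratio there is loosely determined.

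Spp1 went with Cd55 in the libraries without antibody. The ratio of Cd55 to Spp1 counts was 0.126 and 0.114 with IL-15 alone, 0.110 and 0.114 with feeder cells, and 0.0348 and 0.0285 with the antibody. The ratio was nearly the same in all 4 libraries without antibody and lower in both with it. Havcr2 had 817 and 735 counts with IL-15 alone, 724 and 1087 with feeder cells, and 78 and 14 with the antibody. Its ratio to Cd55 ranged 4.46-fold over the libraries.

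Other genes of the complement system were few in the deposited values. Of the listed complement genes, 11 besides Cd55 were in the value table, and the other listed genes were not analysed here. The regulators were Cd59b, which encodes an inhibitor of the membrane pore, and Serping1, the C1 inhibitor. The components were C4b, Hc (encoding C5), C8g and Cfp, which encodes properdin, a protein that stabilises a C3 convertase. The receptors were C1qbp, which encodes a protein that binds C1q, Itgam, Itgax and Itgb2, the integrin chains of complement receptors 3 and 4, and Cd97, the receptor of CD55.

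Both other complement regulators had low counts, and Serping1 alone of them reached the count filter. Cd59b had 21 and 9 counts with IL-15 alone, 11 and 16 with feeder cells and 11 and 7 with the antibody, against highest negative controls of 6 to 12. Serping1 had 13 and 36 counts with IL-15 alone, 31 and 16 with feeder cells and 26 and 21 with the antibody, above the highest negative control in all 6 libraries. Its log2 difference between anti-TIM-3 and feeder libraries was 0.41 ± 0.54 (limma adjusted p = 0.574). C4b, Hc and C8g had 5 to 22 counts and, with Cd59b, did not reach the 20 counts in 2 libraries needed for testing.

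Of the 7 tested complement genes, 1 rose and 2 fell in the anti-TIM-3 libraries against the untreated feeder libraries, 4 did not pass, and the median log2 difference was 0.49. Over all 430 probes 38.6% were called, with a median of 0.47, in limma with Benjamini-Hochberg adjustment at 0.05. In this comparison 31.4% of probes rose and 7.21% fell. C1qbp fell by 0.92 ± 0.18 (SE) on the log2 scale (limma adjusted p = 0.0134), with normalised counts of 1747 and 1855 with feeder cells alone, and 1009 and 901 under the antibody. Cfp fell by 1.73 ± 0.38 (limma adjusted p = 0.0176), from 28 and 22 counts in the feeder libraries to 7 and 5, which is the level of the negative controls. It reached the count filter only through the libraries without antibody, where it was high, so its call is no independent support.

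Itgax rose by 1.71 ± 0.47 on the log2 scale (limma adjusted p = 0.0337), from 17 and 21 counts to 47 and 51. Beside feeder replicate 3, it reached the filter only through the anti-TIM-3 libraries, where it was high, so its call is no independent support. Its partner chain gene Itgb2 was at 0.49 ± 0.27, and Itgam at 1.67 ± 0.59 (limma adjusted p = 0.0692). Cd97 was at 1.42 ± 0.58 (limma adjusted p = 0.102), with 60 and 63 counts for feeder cells alone and 94 and 180 counts under the antibody. When 1 of 3 libraries was left out, namely untreated feeder replicates 2 and 3 and replicate 2 of anti-TIM-3, 0 of the 7 genes were called. The limma adjusted p-values were then 0.0562, 0.0899 and 0.0716 for C1qbp, 0.0661, 0.0899 and 0.0731 for Cfp and 0.152, 0.0953 and 0.190 for Itgax. Leaving out anti-TIM-3 replicate 1 also ended that of Cfp, at a limma adjusted p of 0.0586. On the 4 other scales C1qbp and Cfp were called and Itgax was not (limma adjusted p of 0.0696 to 0.218). The Itgax call also ended with the mean negative control count subtracted (limma adjusted p = 0.0754), so that 0 complement genes rose there. Itgam passed when IL-15 replicate 1 or 3 was left out, at limma adjusted p of 0.0282 and 0.0308. Cd97 passed at 0.0230 (limma adjusted p) when anti-TIM-3 replicate 1 was left out.

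Against the IL-15 libraries, 3 of the 7 genes rose, 2 fell and 2 did not pass, where 50.9% of all probes were called (44.0% rose and 6.98% fell). The median log2 difference of the 7 was 0.95, against 0.70 over all probes. C1qbp fell by 1.05 ± 0.18 on the log2 scale (limma adjusted p = 0.00625) and Cfp by 1.40 ± 0.38 (limma adjusted p = 0.0234). Itgam rose by 2.82 ± 0.59 and Itgax by 2.71 ± 0.47. Here too Cfp reached the count filter only through libraries without antibody, where it was high. Itgax reached it through no IL-15 library, so the calls of Cfp and Itgax are no independent support. Cd97 rose by 2.15 ± 0.58 (limma adjusted p = 0.0230), with normalised counts of 30.0 and 55.6 with IL-15 alone, and 106 and 313 under the antibody. Cd55 was thus lower, and the gene of its receptor higher, in both anti-TIM-3 libraries than in both IL-15 libraries. A higher value was common on this scale: 243 of 430 tested probes, Cd97 among them, had both anti-TIM-3 libraries above all 4 others.

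The Cd97 call against IL-15 ended on all 4 other scales (log2 differences of 1.38 to 1.56, limma adjusted p of 0.0519 to 0.0884), in a fit of these groups alone (limma adjusted p = 0.0508), and when IL-15 replicate 1 or anti-TIM-3 replicate 2 was left out, at limma adjusted p of 0.0781 and 0.0904. The number of complement genes called was 3 without IL-15 replicate 1 and 2 without anti-TIM-3 replicate 2. The Cfp call ended without any 1 of these 4 libraries (limma adjusted p of 0.0765 to 0.125), and that of Itgam when anti-TIM-3 replicate 2 was left out, at a limma adjusted p of 0.0501. Both comparisons share the anti-TIM-3 libraries. Between the untreated feeder and IL-15 libraries 0 of 7 complement genes and 0.0% of all probes were called in limma, with 0 of 7 and 39 of 430 at an unadjusted p under 0.05.

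**Figure D5:**
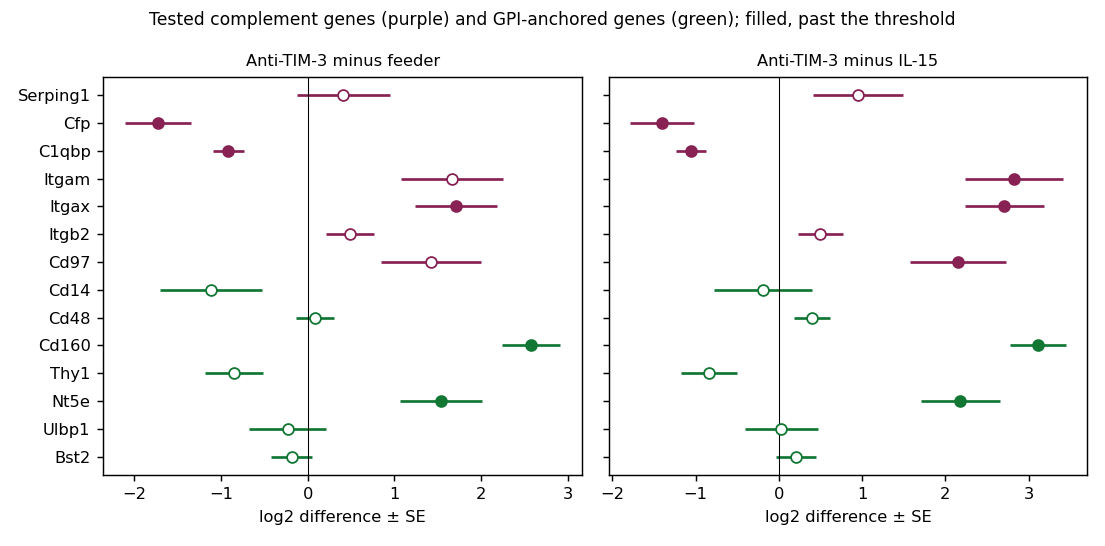
Log2 difference ± SE of the fit (x axis) of the 7 tested complement genes (purple) and the 7 tested genes of GPI-anchored proteins (green) between anti-TIM-3 libraries and untreated feeder libraries (left) or IL-15 libraries (right), n = 2 libraries per group. Filled points passed the threshold, among them C1qbp and Cfp below 0 and Cd160 above 0 in both panels.

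Other genes of GPI-anchored surface proteins were called about as often as probes in general. Of 7 tested, 2 rose, 0 fell and 5 did not pass in the anti-TIM-3 libraries against the untreated feeder libraries, with a median log2 difference of -0.19 against 0.47 over all probes. Of all probes 31.4% rose and 7.21% fell, so these counts are near the background. Cd160, an NK cell receptor gene, rose by 2.58 ± 0.34 (limma adjusted p = 0.00830), from normalised counts of 327 and 173 to 1397 and 1439. Nt5e, which encodes the adenosine-producing enzyme CD73, rose by 1.54 ± 0.48 (limma adjusted p = 0.0464), from 29 and 20 counts to 51 and 60. Cd48, the ligand gene of the NK receptor 2B4, was at 0.08 ± 0.22, and Thy1 at -0.85 ± 0.34 (limma adjusted p = 0.0959). Thy1 was lower in both anti-TIM-3 libraries (4581 and 2391) than in both feeder libraries (5419 and 6565).

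Cd160 was called on each of the 4 other scales, but not when untreated feeder replicate 3 was left out (limma adjusted p = 0.0538), where 0 of these genes were called. The Nt5e call ended on the 4 other scales (limma adjusted p of 0.0898 to 0.292) and with negative controls subtracted (limma adjusted p = 0.0531). It also ended when either untreated feeder library, or replicate 2 of anti-TIM-3, was left out (limma adjusted p of 0.135 to 0.243). Thy1 passed when anti-TIM-3 replicate 1 was left out (limma adjusted p = 0.0224) and with the median of ratios (limma adjusted p = 0.0429).

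Markers of other cells differed in both directions in the libraries where Cd55 was low. The calls below are those of anti-TIM-3 against untreated feeder libraries on the housekeeping scale, where 31.4% of all probes rose and 7.21% fell. Of 7 mast cell and basophil markers with values, 3 were tested. The receptor gene Kit rose, and Ctsg and Cma1, which are among the 10 genes picked above, were lower. The summed normalised level of all 7 was 520 to 1220 in IL-15, 625 to 1356 in untreated feeder and 458 to 490 in anti-TIM-3 libraries. In the anti-TIM-3 libraries most of this sum was Kit, with 340 and 247 counts, beside 16 and 4 for Ctsg and 6 and 1 for Cma1. The sum therefore does not show how far the 2 protease genes were lower. The defining mast cell genes Fcer1a, Ms4a2 and Tpsab1 had 5 to 18 counts in every library, near the negative controls. Summed myeloid markers were at 296 to 515 in the libraries without antibody and at 1107 and 1285 under anti-TIM-3, with 3 of 8 tested rising, a share near that of all probes. Those 3 were Cd74 and H2-Aa, which encode proteins of MHC class II presentation, and Itgax, whose call is no independent support, as said above. The monocyte receptor genes Cd14 and Tlr4 had log2 differences of -1.12 and -1.05 and did not pass (limma adjusted p = 0.174 and 0.128). Of 2 T cell markers the T cell receptor complex gene Cd3d fell by 1.83 on the log2 scale (limma adjusted p = 0.0396), from 192 and 152 counts to 60 and 24. With IL-15 alone Cd3d had 27 and 88 counts, which overlap those under the antibody. Cd247, which NK cells also express and which makes up most of the T cell sum, was at 0.30. That sum was 319 to 606 without antibody and 448 and 610 with it, and the B cell sum 30.7 to 58.1 and 39.4 and 64.2. The neutrophil marker Mpo had 6 to 11 counts. Of the feeder line's ligands Cd86 had 6 to 24 counts and Icam1 rose. Icam1 also had 102 and 176 counts in the IL-15 libraries, which had no feeder cells, beside 161 and 99 in the untreated feeder libraries. Of 11 NK cell markers 5 rose and 2 fell. The summed normalised level of all 11 was 70246 to 105352 without antibody and 109910 and 121426 with it. That sum depends on the scale, since 1 count was worth 1.13 and 1.74 units in anti-TIM-3 replicates 1 and 2. In the other libraries 1 count was worth 0.73 to 1.24 units, and the sum was not taken on other scales. The 2 that fell were Prf1 and Eomes, which the sum does not show. Prf1 was at -2.41 on the log2 scale (limma adjusted p = 0.0104), from 7671 and 12576 counts to 1677 and 1270. Eomes was at -0.72 (limma adjusted p = 0.0260), from 1612 and 1622 counts to 953 and 637. No marker listed here was at 0 counts in any library. The part of other cells in the Cd55 level was not tested.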

How the data were processed

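RNA of 6 libraries in 3 groups of 2 was measured with a NanoString panel, although the labels' protocols describe quantitative PCR. The deposited table held log2 values of 532 probes, namely 498 endogenous genes, 20 housekeeping genes and 14 spike-in controls. Nothing states how the authors scaled it. In all 6 libraries the housekeeping probes averaged 9.22 on the log2 scale. The submitters' processing notes name limma but neither its version nor its role. Whole counts were recovered from the steps between values, separately for genes and controls, for 100.0% of values within 0.01 of a whole number. A missing negative control value was taken as 0 counts. The authors' deposited table listed per gene a p-value, a q-value, a test score and a log2 fold change, and the last was used. A further 18 columns named by instrument lane were not used, because no label ties a lane to a sample.

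Tests used the deposited log2 values in limma 3.58.1 (R 4.3.3), with no pseudocount, for probes that reached 20 recovered counts in 2 or more libraries (430 probes, housekeeping genes included). The model had 1 mean per group over all 6 libraries and robust moderation with a variance trend. Benjamini-Hochberg adjustment ran over all tested probes, with a threshold of 0.05. The script was tested on simulated data. Cd55 was chosen for its levels, so its own test result is not used. It was among the fitted probes and is counted in the shares over all probes. The genes named were, of each list, the members past the threshold (up to 6) and up to 4 with the highest level, and the 10 genes most like Cd55. Other genes named, such as the marker genes and Klra4, were chosen after their values were seen. The members and lists were chosen with earlier results of these data known. Nothing says that libraries of a group came from separate animals, so p-values reflect only how far these samples differ, and that spread may be technical. Numbers in the sample titles gave the replicate names. Alternatives were 4 other scalings, subtraction of negative controls, a pseudocount of 1 count, other filters and moderation, fits of 2 groups, a replicate block, and leaving out each library.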

Additional observations from a re-analysis of the deposited data

How the results depend on the processing

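The Cd55 differences between anti-TIM-3 and either other group kept their direction under all 11 alternatives run for each. They moved by less than the SD between replicates, pooled over the 2 groups compared. With 2 libraries per group, leaving out 1 library cannot move a difference by more than this SD. Nor can it reverse these directions, because both anti-TIM-3 libraries lay below all the others. For those runs neither the direction nor the size of the move is therefore a sign of stability. Without 1 library the anti-TIM-3 minus feeder difference lay between -5.62 and -4.47, the anti-TIM-3 minus IL-15 difference between -5.66 and -3.60, and the feeder minus IL-15 difference between -0.62 and 1.45, so that the last has no settled direction. The cause was not tested. The distance of Cd55 from the negative controls in the anti-TIM-3 libraries was 3.70 on the log2 scale from their mean, 3.00 from the highest control and 2.83 from the mean plus 2 SD. It was 2.64 and 4.77 with either anti-TIM-3 library alone. On other scales, and without any 1 library, 8 to 10 of the 10 genes most like Cd55 remained, a check chosen after seeing the data.

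Of complement genes called against feeder libraries, the number without 1 library was 0 to 4, and against IL-15 libraries 2 to 5. For GPI-anchored genes it was 0 to 3. With 1 library left in a group, that library is assumed to vary like the others, and the fit has fewer degrees of freedom. Of GPI-anchored genes, 1 was called with total count, positive controls, the trimmed mean of M values or negative controls subtracted. The scale moved the calls over all probes: 135 rose and 31 fell against feeder libraries on the housekeeping scale, 51 and 48 with the trimmed mean of M values, 56 and 39 with total count, 32 and 37 with positive controls, and 42 and 57 with the median of ratios. Against IL-15 libraries the numbers were 189 and 30, then 71 and 78, 70 and 64, 47 and 47, and 68 and 86. The median log2 difference against feeder libraries was 0.47, -0.03, 0.16, -0.04 and -0.11 on these scales.

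Between libraries with equal numbers in the titles, the correlations of deviations over 430 probes were 0.08, 0.04 and -0.41 for numbers 1, 2 and 3. With 2 libraries per group, the deviations of a group mirror each other. The correlations therefore cannot decide whether equal numbers mark related libraries. With the number as a replicate block, 0 complement genes were called against feeder libraries and 2 against IL-15 libraries, 1 GPI-anchored gene was called, and 61 and 76 probes were called in all. The Cd55 differences were then -5.73, -4.41 and 1.32 in the order above. Counts near those of the negative controls, as for Cfp, Cd59b, Itgax in IL-15 replicate 1 and the lowest library of Ctsg, limit any size given for these genes. The same holds for Cma1, Klra2 and Ctla4 in the anti-TIM-3 libraries.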

Other observations

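Within groups, where the antibody does not differ, the libraries that were high in Cd55 were also high in a few other genes. This comparison of deviations from group means was chosen after seeing the data, has 3 independent differences between libraries, and is given as a description. Of 410 tested endogenous genes Spp1 and Ctsg were nearest to Cd55 in this measure (root mean square distances of 0.09 and 0.13 on the log2 scale, against a median of 0.79), followed by Lgals3, which encodes galectin-3 (0.27), and then by Klra3, H2-Ob and Klra2, which had 4 to 95 counts. IL-15 replicate 1 minus replicate 3 was 2.07 for Cd55, 1.93 for Spp1, 1.74 for Ctsg and 1.44 for Lgals3. Untreated feeder replicate 2 minus replicate 3 was -1.15, -1.10, -1.30 and -0.50, and anti-TIM-3 replicate 1 minus replicate 2 was 1.10, 0.82, 1.38 and 1.35. Cd55, Spp1, Ctsg and Lgals3 differed the same way in all 3 groups. The last 3 were picked for nearness to Cd55 in these same differences, so their shared direction is no result of its own. Ifitm1 and Ifitm2, which are among the 10 genes most like Cd55 over all libraries, came only at places 277 and 147 in this order.

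Other genes ran opposite to Cd55 within groups on the housekeeping scale. At only 4 to 95 counts, the Ly49 receptor genes Klra3 and Klra2 were among those that went with Cd55. The nearest to its mirror image were Cd83, with 6 to 31 counts, then Klrc2, a receptor gene of the NKG2 family, Tcf7, encoding the transcription factor TCF-1, and Klrk1, which encodes NKG2D. Klrk1 had a normalised count of 1273 and 3766 in IL-15 replicates 1 and 3, 4539 and 2956 in untreated feeder replicates 2 and 3, and 9859 and 13248 in anti-TIM-3 replicates 1 and 2. Klrc2 was at 290 and 1067, 1273 and 685, and 5594 and 6509 in the same order. On this scale the library with more Cd55 had less Klrk1 and Klrc2 in each group, which follows from how they were picked. In recovered counts this held in the IL-15 and untreated feeder groups but not in the anti-TIM-3 group, where replicate 1, with more Cd55, also had more Klrk1 (8753 against 7630) and Klrc2 (4966 against 3749). What these libraries share, such as their cell make-up, their handling or their RNA, was not tested.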
